A study of Mus musculus with 6 samples.

Results

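The core genes of the circadian clock were followed in pancreatic islets of mice that lack Neurod1 in beta cells. The set was fixed by gene symbol and comprised the activators Arntl and Clock, the repressors Per1, Per2, Per3, Cry1 and Cry2, the PAR bZIP output factors Dbp and Tef, and Nfil3, which opposes them. All 10 symbols were found among the 23284 genes of the deposited count tables, and all 10 had enough counts to be tested.

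The clock is a feedback loop of transcription that runs in most cells, islet cells included. ARNTL (BMAL1) and CLOCK bind E-box elements and switch on the Per and Cry genes, whose proteins return to the nucleus and block ARNTL and CLOCK. The same pair drives the nuclear receptor genes Nr1d1 and Nr1d2 (REV-ERB alpha and beta), whose products repress Arntl through ROR elements, and the PAR bZIP genes Dbp, Tef and Hlf, whose products activate D-box genes that NFIL3 represses. Transcripts of Arntl on 1 side and of Dbp, Nr1d1 and the Per genes on the other therefore peak at opposed times of day, and the islet clock is known for its part in timing insulin secretion.

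The knockout group carried floxed Neurod1 on both alleles together with Rip-Cre, a Cre recombinase driven by an insulin promoter and so aimed at beta cells, and the control group carried the same floxed alleles without Cre. Both were given the strain name C56BL/J and were 12 weeks old, and each group had 3 libraries of hand-picked islets, numbered 4, 5 and 6 (knockout) and 7, 10 and 16 (control). Effects of Cre itself and of the deletion cannot be told apart, and islet cells other than beta cells were not targeted. Whether libraries stand for separate animals is not labelled, so the p-values cover the spread among these libraries, which may be technical. The time of day at which islets were taken was not given in the sources used here. A shift in clock phase and a change in level therefore cannot be told apart.

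Library totals ranged from 12206393 to 20412435 counts. Levels are CPM (counts scaled to a library of 1e+06) with library sizes scaled by TMM factors unless stated otherwise. Neurod1 had 28.4, 29.8 and 31.3 CPM in knockout libraries 4, 5 and 6 and 198, 177 and 141 CPM in control libraries 7, 10 and 16 (log2 fold change -2.53, SE 0.13, adjusted p = 1.74e-05 by edgeR). All 9 beta cell and 8 alpha cell markers were detected in each library. Over all genes tested, 24.4% passed the test in either direction (adjusted p under 0.05 by edgeR). The marker counts that follow stand beside that share, and summed levels of markers are without TMM factors. Of the beta cell markers 3 were higher and 2 lower, and of the alpha cell markers 1 was lower (summed level 26821 to 34601 CPM in the knockout, 36712 to 50850 CPM in the control). Of 8 duct markers 1 was higher and 4 were lower, and of 6 Schwann cell markers 2 were higher. Acinar cell markers summed to 4689 to 13707 CPM in the knockout and 13244 to 46422 CPM in the control, and 2 of 16 passed the test, both lower. Of 15 endothelial markers 10 were lower (summed level 744 to 848 CPM in the knockout and 1129 to 1159 CPM in the control), and of 14 stromal markers 4 were lower (792 to 1022 CPM and 1106 to 1496 CPM). No marker of these 3 lists was at 0 counts in any library. Of 6 delta and PP cell markers 1 was higher and 1 lower, and of 13 leukocyte markers 1 was lower. Leukocyte markers summed to 754, 398 and 1017 CPM in knockout libraries 4, 5 and 6 and 529, 687 and 409 CPM in control libraries 7, 10 and 16. In whole islets, fewer cells of a type and less RNA per cell cannot be told apart.

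One clock member differed between the groups, the output factor gene Dbp, which was 2.38-fold higher in the knockout. The other 9 members, Arntl, Clock, the 3 Per genes, both Cry genes, Tef and Nfil3, did not pass the test (edgeR's quasi-likelihood test, Benjamini-Hochberg adjusted p under 0.05). This 1 of 10 stood against 24.4% of the 14770 genes tested that passed in either direction. Dbp was also the 1 member whose knockout and control libraries did not overlap, against 42% of the genes tested. The median log2 fold change of the 10 members was 0.06 and that of all genes tested was -0.0075. With DESeq2, 2 members passed, both higher, where 18.7% of 19437 genes did, a larger set that was not filtered for low counts beforehand. In a fit that took the mean log2 CPM of the acinar markers as covariate 0 passed, where 11.1% of all genes did. Without knockout library 6 the count was 3 (19.7% of all genes) and without control library 16 it was 2 (18.8%). The acinar covariate moved the log2 fold change of several members that did not pass in either fit, to 0.58 for Arntl, -0.80 for Per1, -0.46 for Cry1 and -1.52 for Cry2.

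**Figure D1:**
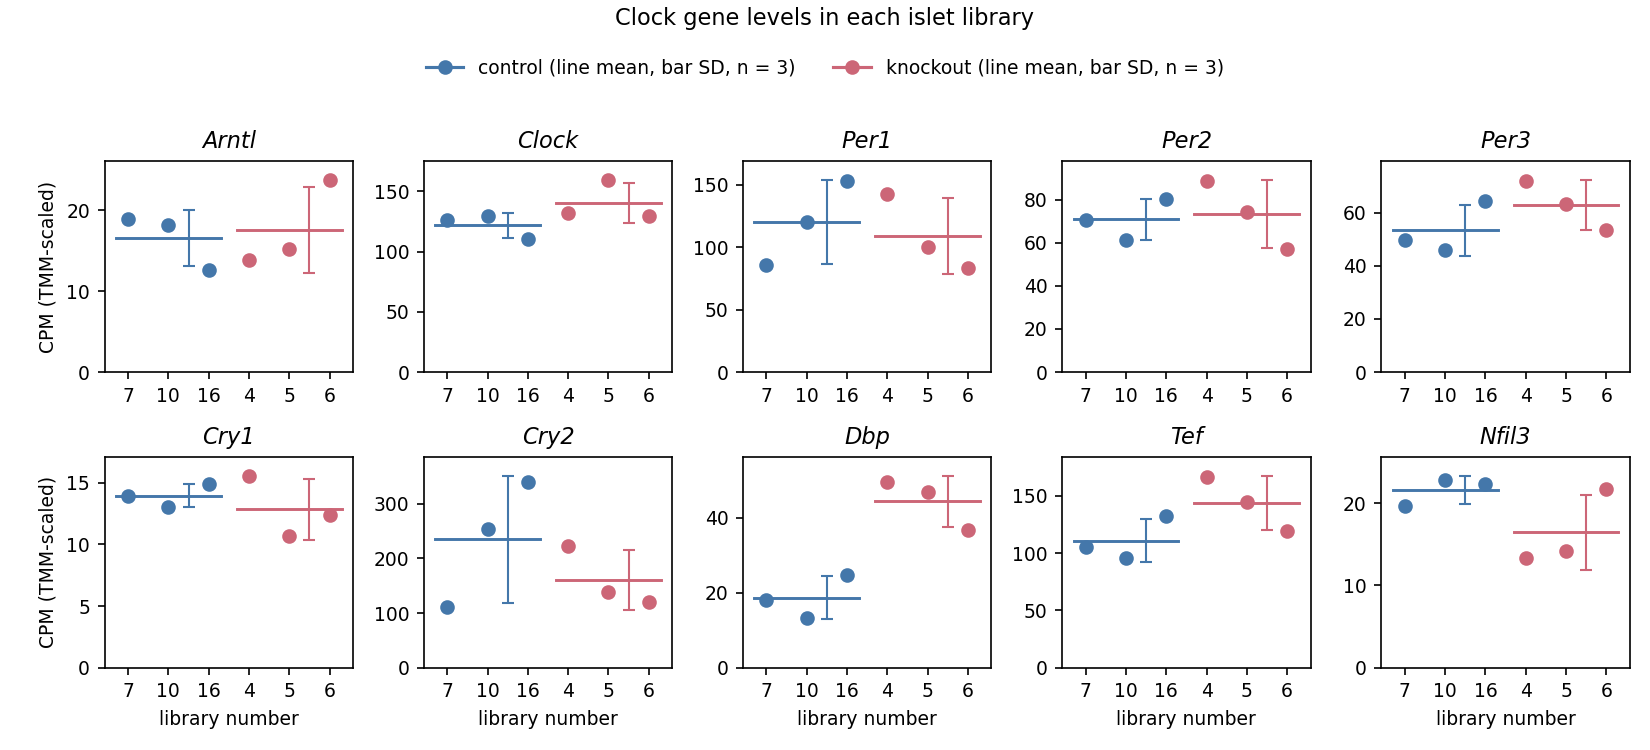
Level of each clock member (vertical axis, TMM-scaled CPM from 0) in each of the 6 islet libraries (horizontal axis, library number), with the group mean as a line and the SD as a bar (n = 3). The 3 knockout libraries lie above the 3 control libraries for Dbp, at 36.7 to 49.6 CPM against 13.3 to 24.8 CPM, and overlap them for the other 9 genes.

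Short stretches of the promoters show the elements through which members of the loop act on each other. They come from RefSeq start sites (build GRCm38.p6, a later build than the mm9 of the counts), printed 5′ to 3′ on the strand of the gene with the searched elements in capitals. The elements were the E-box CACGTG, the E-prime box CACGTT, the D-box TTATGTAA and the ROR element TAGGTCA, searched on both strands from 250 bases before to 50 bases after each start. No element shares a match with another in these windows. For Arntl and Tef the stretch belongs to the second listed start. Start sites were listed for 9 of the 10 members, Per2 being the exception. The stretches below are shown because they display each input of the loop. Those of Per1, Cry1 and Tef hold an E-box, and that of Per3 holds 2 D-boxes. Those of Cry1, Cry2 and Nr1d1 hold an E-prime box on the opposite strand. Those of Arntl and Nfil3 hold a ROR element within an annotated exon (on the opposite strand in Nfil3).
Per1, chr11:69098753-69098818, plus strand: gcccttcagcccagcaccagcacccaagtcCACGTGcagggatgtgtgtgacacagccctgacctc
Cry1, chr10:85185079-85185163, minus strand: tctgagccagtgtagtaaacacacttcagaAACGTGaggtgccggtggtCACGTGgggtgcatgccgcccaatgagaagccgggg
Tef, chr15:81811246-81811311, plus strand: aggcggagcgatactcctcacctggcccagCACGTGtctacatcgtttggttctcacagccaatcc
Per3, chr4:151044786-151044900, minus strand: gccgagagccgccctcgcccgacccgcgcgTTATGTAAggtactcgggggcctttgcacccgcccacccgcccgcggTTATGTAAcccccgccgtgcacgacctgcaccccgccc
Cry2, chr2:92434200-92434265, minus strand: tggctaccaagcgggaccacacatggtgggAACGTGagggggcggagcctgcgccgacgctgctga
Nr1d1, chr11:98775378-98775435, minus strand: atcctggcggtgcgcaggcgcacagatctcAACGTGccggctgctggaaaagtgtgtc
Arntl, chr7:113207531-113207556, plus strand: aggcagaaagTAGGTCAgggacggag
Nfil3, chr13:52981036-52981061, minus strand: cgctcggaacTGACCTActaacacac

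Of 32851 windows of 300 bases in the same table, 7.15% held the E-box, 4.68% the E-prime box, 0.938% the D-box and 2.61% the ROR element. The windows of Dbp, Clock and Nr1d2 held none of the 4 elements, which says only that these letters are not in those windows. The matches are a description of sequence, and no binding was measured.

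Arntl encodes the bHLH-PAS activator that pairs with CLOCK. It had 13.9, 15.1 and 23.7 CPM in knockout libraries 4, 5 and 6 and 19.0, 18.1 and 12.6 CPM in control libraries 7, 10 and 16. The groups overlapped, and the widest gap lay within the knockout, where library 6 stood above 4 and 5 (log2 fold change 0.07, SE 0.24, adjusted p = 0.853). The sign of this difference turned without knockout library 6 (-0.18) or control library 16 (-0.086). Clock, whose protein is the partner of ARNTL, was the steadier of the pair, with 132, 159 and 129 CPM in the knockout and 126, 130 and 110 CPM in the control (0.20, SE 0.10, adjusted p = 0.180).

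The Per genes encode repressors, and Per1 and Per2 also respond quickly to hormones and other resetting signals. Per1 had 142, 100 and 83.3 CPM in knockout libraries 4, 5 and 6 and 86.0, 120 and 153 CPM in control libraries 7, 10 and 16. Both groups covered nearly the same range (-0.14, SE 0.29, adjusted p = 0.768), and the sign turned without knockout library 6 (0.032) or control library 16 (0.075). Per2 had 88.6, 74.2 and 57.0 CPM in the knockout and 70.8, 61.4 and 80.4 CPM in the control (0.05, SE 0.17, adjusted p = 0.853). Its sign also turned without single libraries, being -0.088 without knockout library 4 and -0.043 without control library 10. Per3, whose promoter stretch above holds 2 D-boxes, had 72.1, 63.4 and 53.4 CPM in the knockout and 49.6, 46.2 and 64.4 CPM in the control (0.24, SE 0.15, adjusted p = 0.282). Knockout library 4 was the highest and library 6 the lowest knockout library for all 3 Per genes, and control library 16 was the highest control for all 3.

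The Cry genes encode the repressors that bind and block ARNTL and CLOCK together with the PER proteins. Cry1 was low, and even in the control only, with 15.5, 10.7 and 12.4 CPM in the knockout and 13.9, 13.05 and 14.9 CPM in the control (-0.11, SE 0.15, adjusted p = 0.614). Cry2 varied more between libraries of 1 genotype than any other member. It had 222, 138 and 121 CPM in the knockout and 110, 254 and 339 CPM in the control. The 3 controls spanned 1.62 on the log2 scale, so a difference of -0.54 (SE 0.49, adjusted p = 0.485) was within the spread of replicates. It ranged from -0.18 without control library 16 to -0.88 without control library 7.

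Dbp and Tef encode PAR bZIP activators, which carry the clock signal to output genes. Dbp had 49.6, 46.8 and 36.7 CPM in knockout libraries 4, 5 and 6, from 808, 698 and 457 counts. It had 18.1, 13.3 and 24.8 CPM in control libraries 7, 10 and 16, from 351, 271 and 362 counts. Every knockout library lay above every control library. The means were 44.4 ± 6.78 CPM and 18.8 ± 5.80 CPM (SD, n = 3 each), a log2 fold change of 1.25 (SE 0.23, adjusted p = 0.0110 by edgeR). The call held without any single library (log2 fold change 1.05 to 1.50, adjusted p from 0.00345 to 0.0489). It was lost in the fit with the acinar covariate (0.85, adjusted p = 0.136), and the part of acinar cells in the difference was not tested further. In the authors' deposited table Dbp had a log2 fold change of 1.26 (adjusted p = 2.48e-06), and the adjusted p of the other 9 members there ranged from 0.151 to 1.

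Dbp lies next to Sphk2, a sphingosine kinase gene on the opposite strand. In GENCODE M21 (GRCm38) 539 of the 1837 exonic bases of Dbp overlapped exons of Sphk2. No source used here tells whether strand was used in counting, so reads in the overlap could not be assigned with certainty. Sphk2 itself had 45.0, 45.1 and 50.2 CPM in the knockout and 57.6, 50.9 and 51.3 CPM in the control, a difference of the opposite sign to that of Dbp (-0.19, SE 0.08, adjusted p = 0.121).

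Tef had 166, 145 and 120 CPM in the knockout and 105, 95.6 and 132 CPM in the control. Knockout libraries 4 and 5 lay above all controls and library 6 did not, and the difference of 0.38 (SE 0.15) missed the threshold (adjusted p = 0.120). It passed with DESeq2 (0.39, adjusted p = 0.0357) and without knockout library 6 (0.50, adjusted p = 0.0473) or control library 16 (0.52, adjusted p = 0.0445). Under the acinar covariate the difference was 0.026 (adjusted p = 0.943). Nfil3, the D-box repressor, had 13.4, 14.2 and 21.7 CPM in the knockout and 19.7, 22.8 and 22.4 CPM in the control. Knockout libraries 4 and 5 lay below all controls and library 6 lay among them (-0.40, SE 0.18, adjusted p = 0.145). Without knockout library 6 the difference was -0.63 (adjusted p = 0.0107).

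Levels of different genes were compared per kilobase of exon, with exonic lengths from GENCODE M21, since the annotation used for the counts was not given in the sources used here. In the control the order was Cry2 (54.1 ± 26.6 CPM per kilobase, SD, n = 3), Tef (23.6 ± 4.02), Per1 (21.3 ± 5.98), Clock (12.3 ± 1.04), Per2 (12.2 ± 1.63), Nfil3 (10.7 ± 0.828), Dbp (10.2 ± 3.16), Per3 (8.90 ± 1.62), Arntl (5.36 ± 1.12) and Cry1 (4.61 ± 0.305). Neighbours in this order overlapped in their libraries except at the steps from Per1 to Clock and from Per3 to Arntl. In the knockout Dbp stood at 24.2 ± 3.69 CPM per kilobase (SD, n = 3), the third level after Cry2 (37.0 ± 12.5) and Tef (30.5 ± 4.98). Its knockout libraries (19.99 to 27.01) overlapped those of Tef (25.38 to 35.33) and of Per1 (14.81 to 25.28).

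Both arms of the clock were then set side by side in each library. Members were centred on their mean log2 CPM over the 6 libraries. The mean of Per1, Per2, Per3, Dbp and Tef was 0.44, 0.20 and -0.11 in knockout libraries 4, 5 and 6, against -0.30, -0.38 and 0.14 in controls 7, 10 and 16. The mean of Arntl and Clock was -0.12, 0.08 and 0.25 in the knockout, against 0.07, 0.06 and -0.32 in the control. The output arm was thus highest within each genotype in the library where the mean of the activators was lowest, knockout 4 and control 16. In the knockout this rested on Arntl alone, since Clock was lowest in library 6.

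Of the 10 members, 7 were highest in knockout library 4 among the knockouts and in control library 16 among the controls (Per1, Per2, Per3, Cry1, Cry2, Dbp and Tef), and 14.7% of all genes tested showed that pattern. Arntl was the 1 member that was lowest in both, as were 14.3% of all genes tested. Npas2, a CLOCK paralog that is not a member, followed Arntl, with 3.50, 6.43 and 12.5 CPM in the knockout and 6.09, 5.35 and 3.02 CPM in the control. The summed acinar markers had the same lowest libraries as Arntl, those where the output arm was highest. Their highest libraries, knockout 5 and control 7, were not those where the output arm was lowest, knockout 6 and control 10. Control 7 was, however, the control with the most Arntl and Npas2 and the least Per1 and Cry2. In the knockout library 6 held these places. The acinar markers took 0.469%, 1.37% and 1.03% of all counts of knockouts 4, 5 and 6 and 4.64%, 3.94% and 1.32% in control libraries 7, 10 and 16. Their part in the order of the clock genes was not tested.

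**Figure D2:**
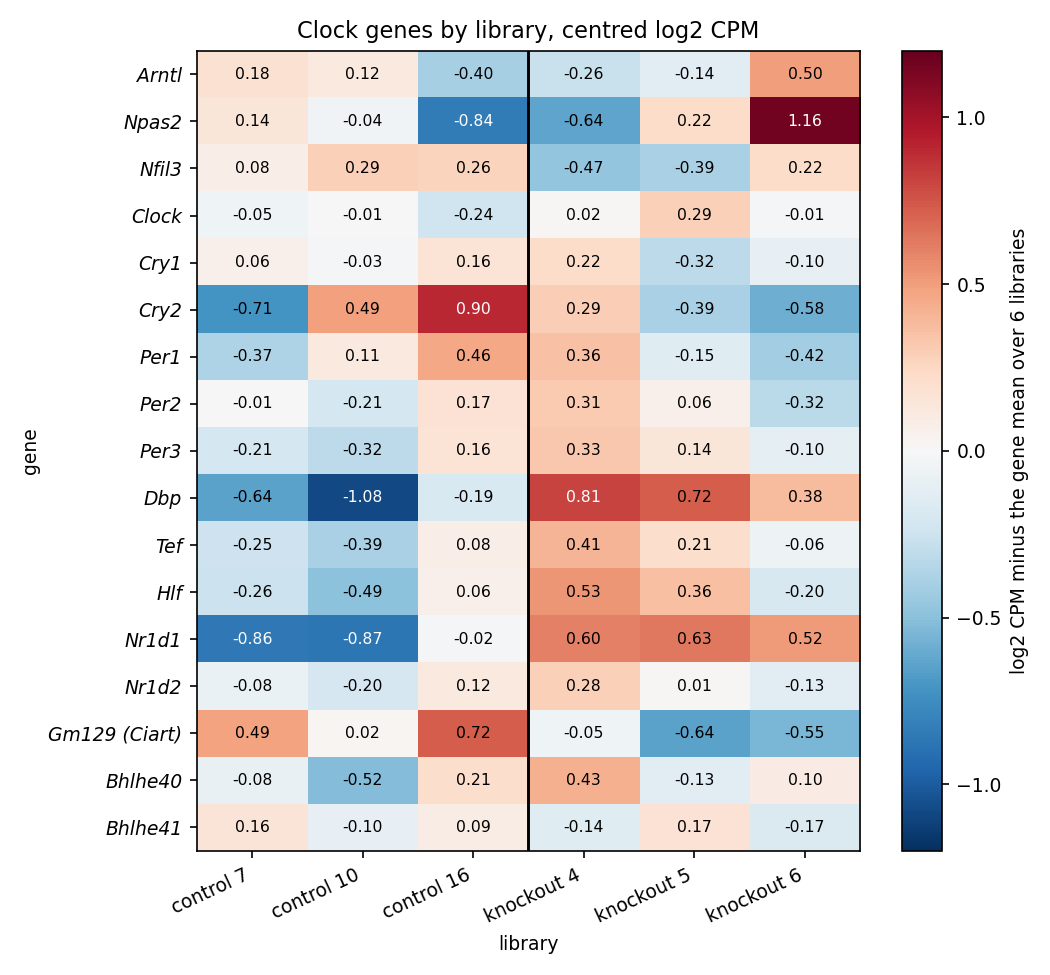
Log2 CPM of each clock gene minus its mean over the 6 libraries (colour and printed value), with genes in rows and libraries in columns and a line between control and knockout. Arntl and Npas2 are below 0 in control 16 and knockout 4, where the Per genes and Tef are above 0, while Dbp and Nr1d1 part the genotypes.

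The log2 ratio of Dbp to Arntl was 1.83, 1.62 and 0.63 in knockout libraries 4, 5 and 6, against -0.06, -0.45 and 0.97 in controls 7, 10 and 16. The groups overlapped on this ratio, because control 16 lay above knockout 6. Dbp alone did not overlap. Knockout library 6 had the most Arntl of the 6 libraries and 36.7 CPM of Dbp. Control library 16 had the least Arntl and 24.8 CPM of Dbp. The part of clock phase in these values was not tested.

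**Figure D3:**
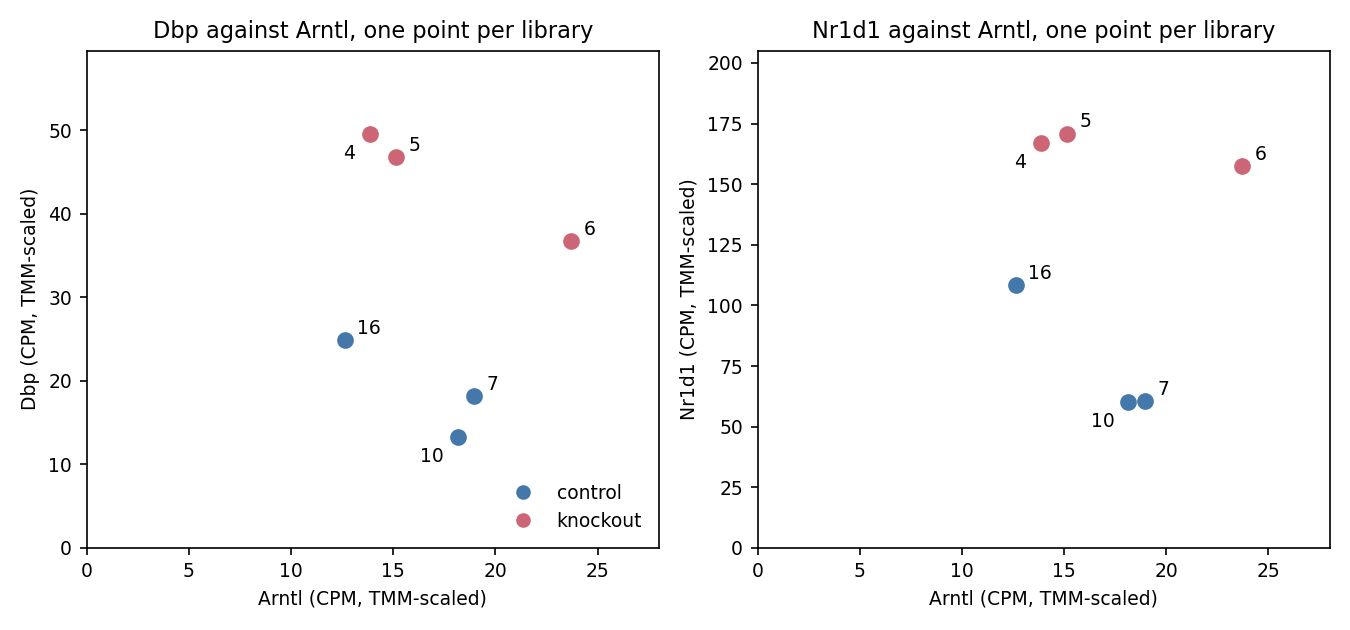
Dbp (left) and Nr1d1 (right) against Arntl, all in TMM-scaled CPM on axes from 0, with 1 point per library labelled by its number. All 3 knockout points lie above all 3 control points in both panels, from 36.7 CPM of Dbp and 157 CPM of Nr1d1 upward.

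Among 11 other genes of the clock loop, 10 had enough counts to be tested and Rorb did not. Nr1d1 passed, higher in the knockout, and the other 9 did not, beside 24.4% of all genes tested (median log2 fold change of the 10 genes 0.19). Nr1d1 had 167, 171 and 157 CPM in the knockout and 60.6, 60.2 and 108 CPM in the control. Each knockout library was above each control library, with control 16 between the other controls and the knockouts (log2 fold change 1.12, SE 0.25, adjusted p = 0.0242). The call was lost without any 1 library except control 16 (log2 fold change 0.97 to 1.17, adjusted p from 0.0567 to 0.0850 in those 5 fits). It was also lost under the acinar marker covariate (0.66, adjusted p = 0.179). With all libraries it held in DESeq2 (1.13, adjusted p = 0.00154) and limma-voom (1.17, adjusted p = 0.00642). In the authors' deposited table Nr1d1 had a log2 fold change of 1.13 (adjusted p = 2.24e-07). In GENCODE M21, 263 of its 2721 exonic bases overlap exons of Thra, the thyroid hormone receptor gene on the opposite strand. Thra had 38.0, 41.2 and 35.7 CPM in the knockout and 42.0, 46.0 and 44.9 CPM in the control (-0.21, SE 0.08, adjusted p = 0.0865).

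**Figure D4:**
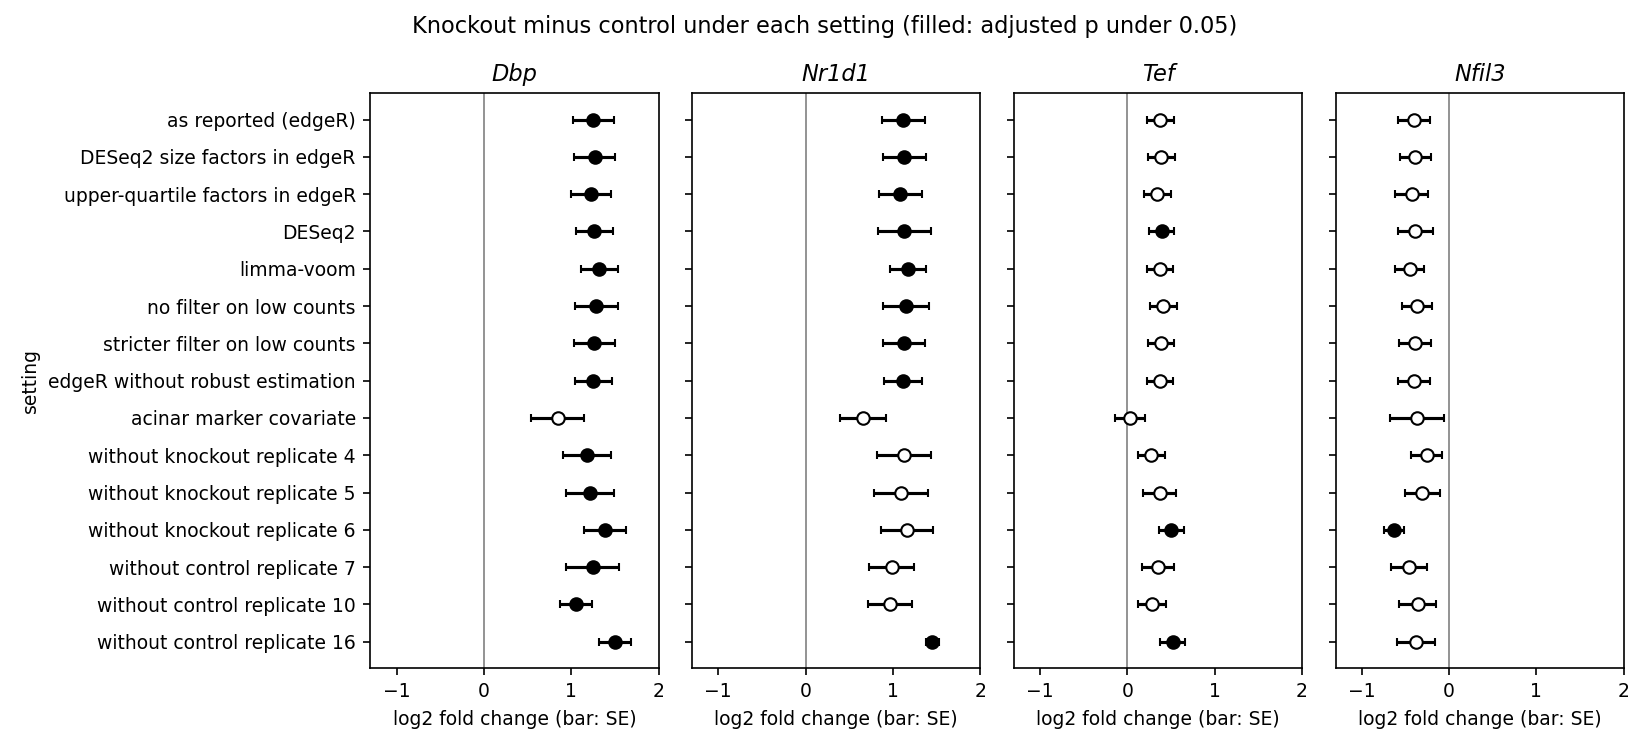
Log2 fold change of knockout against control (horizontal axis, bar SE) for Dbp, Nr1d1, Tef and Nfil3 under the reported fit and 14 other settings (vertical axis), filled where the adjusted p is under 0.05. Dbp is filled in all settings except the acinar marker covariate, and Nr1d1 loses its call in 5 of the 6 fits that leave out 1 library.

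Nr1d2, the second REV-ERB gene, had 194, 161 and 146 CPM in the knockout and 151, 139 and 173 CPM in the control (0.12, SE 0.12, adjusted p = 0.523). Whether the differences of Nr1d1 and Nr1d2 were unequal was not tested. Hlf, the remaining PAR bZIP gene, had 27.5, 24.4 and 16.6 CPM in the knockout and 15.8, 13.5 and 19.8 CPM in the control (0.49, SE 0.21, adjusted p = 0.131). Gm129, an older symbol of the E-box repressor Ciart, lay on the opposite side from Dbp. It had 2.89, 1.88 and 2.01 CPM in the knockout and 4.23, 3.04 and 5.01 CPM in the control, with no overlap, and just missed the threshold (-0.84, SE 0.28, adjusted p = 0.0568). Without knockout library 4 it passed (-1.05, adjusted p = 0.0434) and Nr1d1 did not. Rora, which encodes a receptor that activates Arntl, did not pass either (-0.40, adjusted p = 0.169).

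**Figure D5:**
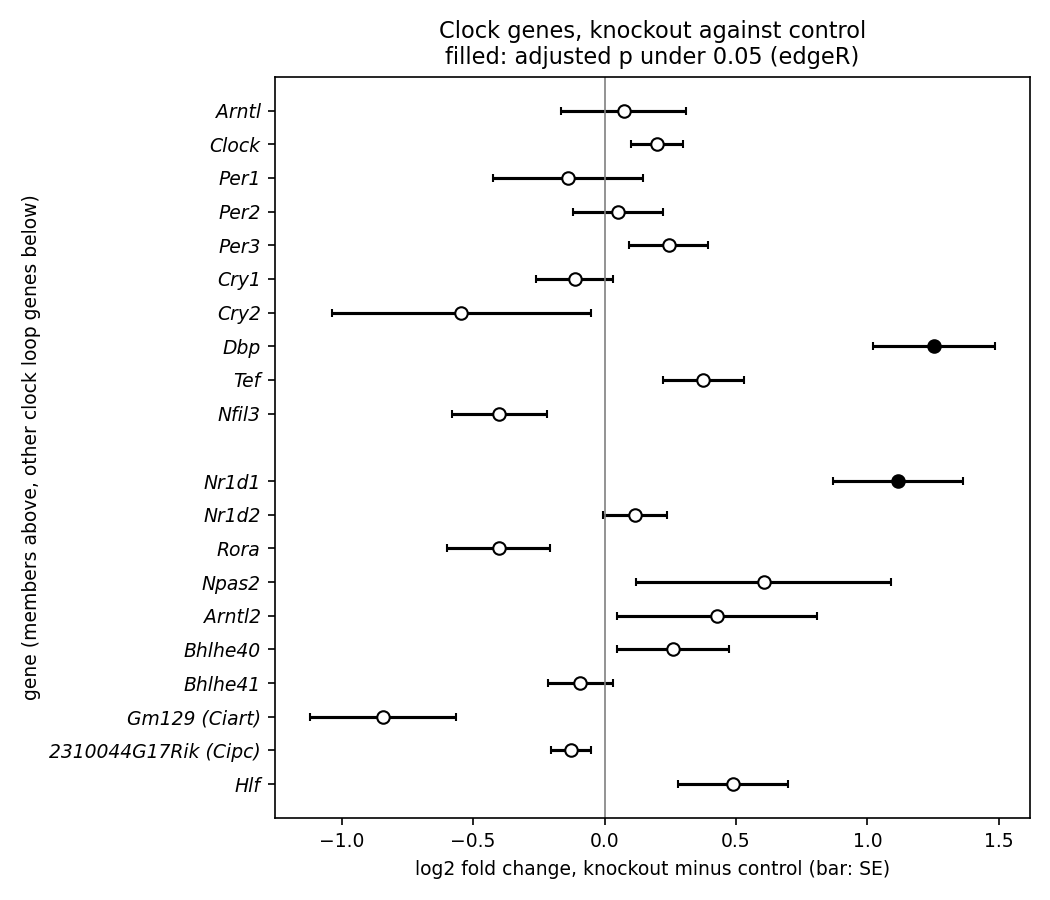
Log2 fold change of knockout against control (horizontal axis, bar SE) for the 10 members and 10 other clock loop genes, with filled points at an adjusted p under 0.05. Dbp (1.25) and Nr1d1 (1.12) are the 2 filled points.

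Of 12 genes whose products modify clock proteins 1 was higher, 2 were lower and 9 did not pass, a share near the 24.4% of all genes tested (median log2 fold change 0.06). Csnk1e, a casein kinase that marks PER proteins for breakdown, fell from 35.1 ± 1.46 to 23.9 ± 2.70 CPM (SD, n = 3 each, -0.55, SE 0.10, adjusted p = 0.00432 by edgeR). Prkaa1, an AMP-activated kinase subunit whose complex acts on CRY1, fell from 139 ± 10.1 to 96.6 ± 2.48 CPM (SD, n = 3 each, -0.53, SE 0.07, adjusted p = 0.00131 by edgeR). Btrc, the F-box protein that recognises phosphorylated PER, was 1.22-fold higher (0.28, SE 0.07, adjusted p = 0.0200). Btrc missed the threshold without 3 of the single libraries (highest adjusted p = 0.0648). With the acinar marker covariate Csnk1e (-0.40, adjusted p = 0.109) and Btrc (0.39, adjusted p = 0.0526) missed it, and Prkaa1 did not.

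Of 8 genes that cycle in many tissues 2 were higher, 1 was lower and 5 did not pass, beside 24.4% of all genes tested (median log2 fold change -0.26). Por, the cytochrome P450 reductase, had 337, 369 and 289 CPM in the knockout and 207, 247 and 275 CPM in the control (0.45, SE 0.12, adjusted p = 0.0315). Coq10b, a coenzyme Q binding protein gene, had 38.6, 36.8 and 27.9 CPM in the knockout and 23.4, 22.2 and 25.6 CPM in the control (0.54, SE 0.13, adjusted p = 0.0157). Lonrf3 was lower, at 1.66, 4.02 and 2.17 CPM in the knockout against 7.28, 6.03 and 8.30 CPM in the control (-1.46, SE 0.31, adjusted p = 0.0115). With the acinar marker covariate none of these 3 passed, with log2 fold changes of 0.30 for Por, 0.38 for Coq10b and -1.21 for Lonrf3 (adjusted p = 0.346, 0.254 and 0.135). Por also missed the threshold without 4 of the single libraries (highest adjusted p = 0.0937) and Coq10b without 2 (highest adjusted p = 0.0635).

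The genes most like Dbp over the 6 libraries were found by the root mean square difference of centred log2 CPM, among tested genes that are no members and have a mean of at least 5 CPM. They were Slc14a2 (0.135), Nr1d1 (0.179), Mcfd2 (0.181), Tnfrsf21 (0.186) and Arrdc4 (0.210). Nr1d1 thus came second on this measure, which the difference between genotypes dominates. Slc14a2, a urea transporter gene, had 19.1, 16.6 and 17.3 CPM in the knockout and 6.40, 5.15 and 9.61 CPM in the control. By the same measure Arid5a (0.103), Cep110 (0.104), Zfp36l1 (0.110), Gmip (0.111) and Tmem194b (0.114) were most like Arntl.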

How the data were processed

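The deposited files hold raw counts for each gene symbol in 6 islet libraries. In the authors' deposited table of their own comparison, per the file headers, stand mean scaled counts (a signal), the fold change as a ratio and as log2, and p-values. The tools named, per the submitters' processing notes, were TopHat2 2.1.0, Cufflinks 2.0.2, DESeq and bcl2fastq 1.8.4, with build mm9. No counter, annotation or strand setting was named in the sources used here.

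The fits used edgeR 4.0.16 under R 4.3.3. filterByExpr chose the genes (minimum count 10, minimum total 15), TMM gave the scaling, and groups were compared over all 14770 genes by edgeR's robust quasi-likelihood test, Benjamini-Hochberg adjusted with a threshold of 0.05. All adjusted p-values are from this fit unless another tool is named. The SE of an edgeR fit was derived as the absolute log2 fold change divided by the square root of the F statistic. Log2 CPM used a prior count of 2. Alternatives used DESeq2 1.42.0, limma-voom (limma 3.58.1), other scaling and filters, an acinar marker covariate and leaving out each library. The edgeR fit was also tried on simulated counts of the 14770 genes, where each size of difference was given to only 100 of them. There 35% of 1.5-fold and 64% of 2-fold differences were recovered, and 7.48% of the calls were false. In the reported fit a much larger share of genes passed, 24.4%. Benjamini-Hochberg adjustment depends on that share, so the simulated rates do not give the power of the reported fit.

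The members and gene lists were chosen with earlier results of these data known, and 1 gene was taken off the list of other clock loop genes because it is not reported here. All members were described. Of other lists of clock, glucocorticoid and cAMP genes those that passed were named, and cell type lists were counted. Rora, Npas2, Nr1d2, Hlf, Gm129, Sphk2 and Thra were named after their values were seen or for their position. The genes most alike were the 5 with the smallest root mean square difference to Dbp or to Arntl.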

Additional observations from a re-analysis of the deposited data

How the results depend on the processing

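Of all genes tested 3600 passed, 1636 with the acinar marker covariate and 2378 (without control library 10) to 2969 (without knockout library 6) in fits that left out 1 library. The clock members that passed numbered 2 with DESeq2, 0 with the acinar marker covariate and 1 to 3 without single libraries. The other clock loop genes that passed numbered 0 with the acinar marker covariate and 0 to 1 without single libraries. With the acinar marker covariate the sign turned for Per2 (-0.27), Per3 (-0.12), Nr1d2 (-0.18), Rora (0.12), Bhlhe40 (-0.27) and Bhlhe41 (0.021), none of which passed in either fit. Without single libraries it turned for Arntl (-0.18 and -0.086, range up to 0.24), Per1 (0.032 and 0.075, range down to -0.36), Per2 (-0.088 and -0.043, range up to 0.22) and Cry1 (0.0070, range down to -0.26), and the cause was not tested. The other scalings, filters, limma-voom and the fit without robust estimation changed no call or sign of the 35 genes examined, and DESeq2 changed 1 call (Tef). Acinar markers differ between the genotypes, so the covariate shares variance with the comparison. No paired analysis was possible because the groups share no replicate number.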

Other observations

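Per1 is also induced by glucocorticoids and by cAMP, so genes of both responses were listed. Of 6 glucocorticoid-induced genes, Dusp1 fell and the other 5 did not pass, beside 24.4% of all genes tested that passed. Dusp1, a MAP kinase phosphatase, had 25.2, 28.9 and 19.9 CPM in knockout libraries 4, 5 and 6 and 49.2, 51.0 and 58.8 CPM in control libraries 7, 10 and 16 (log2 fold change -1.10, SE 0.13, adjusted p = 0.00102 by edgeR's quasi-likelihood test). The median log2 fold change of the 6 was -0.56, beside -0.0075 over all genes tested. Tsc22d3 and Klf9, which were picked after their values were seen, had the same order of libraries within each genotype as Per1 and Cry2. Of the other 4 genes of the list, Sgk1, Zbtb16 and Dusp1 did not. Fkbp5 did not either, with control 10 (264.25 CPM) just above control 16 (264.23 CPM). The share of all genes tested with this full order was not counted. Being highest in both knockout 4 and control 16, which is only part of it, was found in 14.7% of them. Tsc22d3 had 92.4, 48.0 and 38.9 CPM in the knockout and 56.6, 112 and 126 CPM in the control, and Klf9 had 89.7, 61.8 and 53.6 CPM and 63.6, 85.6 and 127 CPM. In control library 10 these 2 genes lay between the other controls, as Per1 and Cry2 did. Per2, Per3, Dbp and Tef were lowest there among the controls. The part of glucocorticoids in these orders was not tested.

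Of 5 cAMP-induced genes, Crem, which encodes a cAMP response factor, was higher in the knockout and the other 4 did not pass, a share near that of all genes tested (median log2 fold change -0.076). It had 53.1, 38.6 and 35.7 CPM in the knockout and 20.97, 20.01 and 29.7 CPM in the control (0.86, SE 0.20, adjusted p = 0.0240). Crem missed the threshold without 2 of the single libraries (highest adjusted p = 0.0781) and under the acinar marker covariate (0.29, adjusted p = 0.266).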
